A study of Mus musculus with 4 samples.

Results

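The ETS family is one of the large families of transcription factors, and the 10 genes described here encode members that are known from endothelium or from nearly all tissues. They are *Erg*, *Fli1*, *Ets1*, *Ets2*, *Elk3*, *Elk4*, *Elf1*, *Elf2*, *Etv6* and *Gabpa*, chosen by name from 21951 protein-coding genes of the mouse annotation. For each gene, peaks of RNA polymerase II (Pol II) were collected at its promoters, in its gene body and in the 50 kb beyond either end. A promoter peak overlapped the 1500 bp on either side of any annotated transcription start site (TSS) of the gene, so a gene could have several. A body peak had its summit inside the gene and a flank peak had its summit outside it, and no peak was placed in more than 1 class for the same gene.

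The libraries were Pol II chromatin immunoprecipitation sequencing (ChIP-seq) of endothelial cells (ECs) sorted from mouse brain, 2 from old WT Cre mice and 2 from young EC-K4KO mice. EC-K4KO mice carried floxed *Klf4*, a gene for a zinc-finger transcription factor, together with a tamoxifen-inducible Cre driven by the VE-cadherin (*Cdh5*) promoter, and WT Cre mice carried that Cre alone (CdH5CRE in the labels). Tamoxifen was given to both genotypes, so Cre and drug were shared by the groups, while genotype and age differed together and cannot be told apart. The replicates are called biological in the study's methods, but whether each was 1 animal or a pool was not given in the sources used here. The libraries are called old-1 and old-2 (old WT Cre replicates 1 and 2) and young-1 and young-2 (young EC-K4KO replicates 1 and 2), and values in a series of 4 are given in that order.

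All ETS proteins share a winged helix-turn-helix domain that contacts DNA with a GGAA core, and flanking bases and partner proteins set much of their specificity. ERG and FLI1 are closely related activators that maintain endothelial identity and vessel stability, and ETS1 and ETS2 act downstream of growth factor signalling. ELK3 and ELK4 belong to the ternary complex factors that bind beside serum response factor, ELF1 and ELF2 act in blood and endothelium, ETV6 is a repressor, and GABPA binds DNA as a partner of GABPB at many housekeeping promoters.

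4 stretches are shown because the results below turn on them. The first lies within an *Erg* intron under a region found in all libraries, at mm10 chr16:95509675-95509859 on the minus strand, and is the part common to the peaks of 3 libraries. The second lies upstream of *Etv6* at chr6:134035036-134035228 on the plus strand and is common to the peaks of 3 libraries. The third lies upstream of the distal *Elf2* promoter at chr3:51341899-51342076 on the minus strand and is common to the peaks of 2 libraries. The fourth is the upstream part of the RefSeq promoter window of *Elk4*, at chr1:132007370-132007606 on the plus strand, the 1 window of the set with an extended ETS site. None overlapped an annotated exon. Capitals mark GGAA, or TTCC where it lies on the opposite strand, in the first 3 stretches, and the site CCGGAAGT in the fourth.

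Erg intron: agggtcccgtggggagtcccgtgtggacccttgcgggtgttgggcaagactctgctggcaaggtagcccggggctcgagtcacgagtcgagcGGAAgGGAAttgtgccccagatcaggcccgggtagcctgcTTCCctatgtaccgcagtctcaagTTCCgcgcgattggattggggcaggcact
Etv6 upstream: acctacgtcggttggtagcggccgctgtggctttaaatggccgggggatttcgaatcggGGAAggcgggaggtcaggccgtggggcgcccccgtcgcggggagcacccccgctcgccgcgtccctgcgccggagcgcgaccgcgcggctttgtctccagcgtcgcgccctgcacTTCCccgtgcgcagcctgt
Elf2 upstream: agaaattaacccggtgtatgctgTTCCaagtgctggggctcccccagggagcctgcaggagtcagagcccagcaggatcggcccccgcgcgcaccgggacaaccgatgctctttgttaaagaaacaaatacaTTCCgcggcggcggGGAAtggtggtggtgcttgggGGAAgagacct
Elk4 promoter: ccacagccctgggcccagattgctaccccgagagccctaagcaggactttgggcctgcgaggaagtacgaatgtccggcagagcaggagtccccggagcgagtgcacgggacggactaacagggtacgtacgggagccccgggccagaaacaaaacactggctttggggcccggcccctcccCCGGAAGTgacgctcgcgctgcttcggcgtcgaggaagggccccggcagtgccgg

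The *Erg* stretch held 4 copies of the core, the *Etv6* stretch 2 and the *Elf2* stretch 4, and their GC contents were 63.8%, 72.5% and 60.1%. GGAA is short, and on either strand it was present in 96.0% of 32817 RefSeq promoter windows of 300 bp (GRCm38), so its presence separates no promoter from another. Such windows matched 8 of the 10 genes, by symbol, in 14 windows. The longer site CCGGAAGT was present in 3.89% of all windows and in 1 of the 14, that of *Elk4*. CCGGAA, which lies inside that site, was present in 14.9% of all windows and in 2 of the 14, those of *Elk4* and *Gabpa*.

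The depth of the libraries differed. The peak caller counted 65734178 and 27455452 fragments in old-1 and old-2, and 35227929 and 22705175 in young-1 and young-2, and listed 78851, 39674, 35638 and 235591 peaks. The shallowest library thus had the longest list. Heights are the fragments at a summit per 1000000 fragments of the library, written FPM. The median tallest promoter peak over all genes was 0.837 in it against 0.319, 0.473 and 0.397 FPM in the others. The tallest peak of the genome took 14.6% and 15.3% of the fragments in the old libraries but 3.36% and 1.73% in the young libraries. *Klf4* itself had a promoter peak in both young libraries and in neither old library, but a promoter peak does not test whether the floxed part of the gene was lost. Of 12 endothelial markers, 5, 5, 0 and 7 had a promoter peak in the 4 libraries and *Pecam1*, *Tek*, *Tie1* and *Ly6c1* had none in any. Over all protein-coding genes the shares were 25.6%, 24.5%, 10.6% and 67.5%, so the 0 of 12 in young-1 stood beside a low share of all genes and does not test the endothelial label. *Abcb1a*, a drug efflux pump of barrier endothelium, had a promoter peak of 0.213 and 0.656 FPM in the old libraries and none in the young. It was the 1 of the 12 with that pattern, against 0.784% of all genes. The summed heights of the 12 were 1.70, 2.91, 0 and 8.98 FPM, of which *Cdh5* gave 3.44 in young-2. The same counts were 3, 0, 2 and 5 of 8 pericyte and smooth muscle markers, 2, 1, 1 and 3 of 6 astrocyte markers, 0, 1, 1 and 5 of 6 neuronal markers, 2, 0, 0 and 4 of 6 microglial markers and 1, 1, 0 and 5 of 6 oligodendrocyte markers. Young-2 had the highest count for each of the 6 marker lists, and the part of cell makeup in the results was not tested.

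With the lists as deposited and a window of 1500 bp, the count of ETS factor genes with a promoter peak was in each library above what the share of all protein-coding genes would give for 10 genes, a description for which no test was made. In old-1, 8 of the 10 had one, against 25.6% of all genes. In old-2 the count was 4, against 24.5%. Young-1 had 3, against 10.6%, and young-2 had all 10, against 67.5%. With each list limited to its 35638 peaks of lowest q, the counts were 8, 4, 3 and 5, against 11.8%, 22.6%, 10.6% and 27.7%. The smaller counts also moved with the peak definition: at a q of at most 1e-05 they were 8, 2, 1 and 10, against 15.1%, 13.4%, 3.34% and 57.1% of all genes. With a TSS window of 500 bp they were 6, 2, 3 and 7, against 18.3%, 19.9%, 7.54% and 56.3%, so old-2 was then at the share of all genes, and in old-2 and young-1 at the stricter q the count was within 1 gene of it. At a fold enrichment of at least 4 they were 7, 4, 2 and 10, against 11.7%, 21.4%, 6.55% and 59.2%. Each of the 10 had a promoter peak in at least 1 library, whereas 25.4% of all genes had none in any. The 10 genes are long, with a median length of 94622.5 bp against 17403 bp for all genes, and had a median of 2.5 distinct TSSs against 2, and the part of TSS number and length in these shares was not tested.

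**Figure D1:**
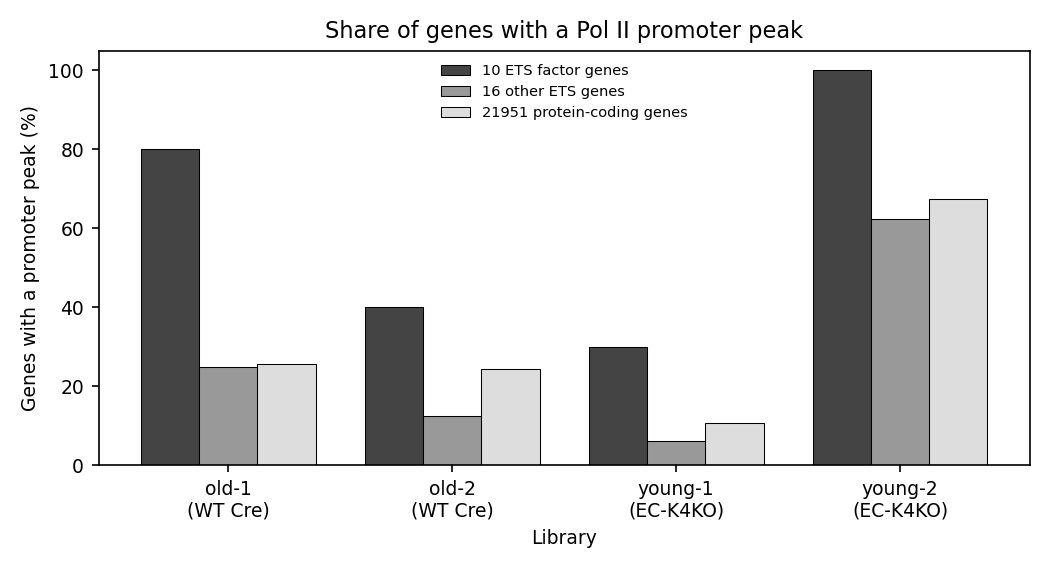
Percentage of genes with a Pol II promoter peak (vertical axis) in each library (horizontal axis), for the 10 ETS factor genes, 16 other ETS genes and 21951 protein-coding genes. The bars of the 10 genes stand above those of all genes in each library, and all bars are highest in young-2.

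Fewer genes had a promoter peak in both libraries of a group. In the old group these were *Ets1*, *Elf2* and *Gabpa*, 3 of the 10 against 10.1% of all genes, of which *Elf2* was lost with the 500 bp window and *Gabpa* at the stricter q. In the young group they were *Ets1*, *Elf2* and *Etv6*, 3 of the 10 against 9.14%, of which *Etv6* was lost at a fold enrichment of at least 4 and with lists of equal length, and *Elf2* and *Etv6* at the stricter q. *Ets1* and *Elf2* had one in all 4 libraries, 2 of the 10 against 2.22%. None of the 10 had a promoter peak in both libraries of 1 group and neither of the other, against 3.9% of all genes (0.784% in the old group alone and 3.12% in the young group alone). With the 500 bp window, *Elf2* had this pattern, in the young group. With 2 libraries against 2, no exact permutation test can give a p below 0.33.

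Heights below are those of the tallest promoter peak of a gene. These are small counts: the tallest promoter peaks of the 10 genes held 11 to 29 fragments, so counting error alone is wide. Counting intervals are exact 95% Poisson limits and cover counting error only.

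*Erg* encodes the ETS factor most used as a marker of endothelial nuclei. It lay on chromosome 16 at 95359169-95586593 on the minus strand, with 6 distinct TSSs. Its promoter peak height was 0.401 FPM in old-2 and 0.617 in young-2, and the other library of each group had no promoter peak. The peaks were at different promoters: in the old library the summit lay 1011 bp downstream of the 5′-most TSS, and in the young library 1150 bp downstream of an internal TSS. Neither summit thus lay at a start site of *Erg*.

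*Fli1*, the close relative of *Erg*, had a promoter peak in young-2 alone, a pattern shared with 30.5% of all genes. The gene lay on chromosome 9 at 32422204-32542861 on the minus strand. That library had 3 *Fli1* promoter peaks of 16 fragments each, 0.705 FPM, with summits 1490 and 896 bp upstream and 1072 bp downstream of the TSS at 32541595. The gene's annotated 5′ end lies further upstream, at 32542861, and 1 of the 3 summits was 224 bp upstream of that end.

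*Ets1* had the most regular promoter signal of the set. It lay on chromosome 9 at 32636221-32757820 on the plus strand, and its 4 TSSs lay between 32696022 and 32696384, inside the annotated gene. Its promoter peak height was 0.396 FPM in old-1, 0.692 in old-2, 0.568 in young-1 and 0.969 in young-2. Counts at the summit were 26, 19, 20 and 22 fragments, with Poisson limits of 0.258 to 0.580, 0.417 to 1.08, 0.347 to 0.877 and 0.607 to 1.47 FPM. The groups overlapped, since old-2 was above young-1. The mean log2 height was −0.93 ± 0.57 (SD, n = 2) in the old group and −0.43 ± 0.55 (SD, n = 2) in the young group, a difference of 0.50 that was within the spread between libraries (two-sided exact permutation test, p = 0.6667). In the 487 genes with a promoter peak in all libraries, the median of the same difference was 0.57, so *Ets1* moved no more than the middle of that set. The difference fell to 0.31 with the fragments over the tallest peak of each library left out of the denominator, and turned to −0.065 against the median promoter peak of each library. The fold enrichment of the same peaks over the local background of their own library was 5.07, 7.46, 5.0 and 7.95. Within their own libraries these heights stood at the 77.4th, 90.1st, 89.3rd and 63.4th percentile of the genes with a promoter peak.

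The tallest *Ets1* summits fell on opposite sides of their nearest TSS in the groups, and that TSS was not the same one. In the old group they were 20 and 57 bp downstream of the TSS at 32696121, in an exon. In the young group they were 121 and 232 bp upstream of the TSS at 32696022, between annotated exons. The old summits were themselves upstream of the TSS at 32696384. Old-1 had a second, lower promoter peak of 0.228 FPM with its summit 228 bp upstream of the TSS at 32696022, close to the summit of young-2. This shift was seen after the values were examined, in 1 gene, and no test was made of it. The share of all genes with such a split is not given here.

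*Ets2*, the paralog of *Ets1*, lay on chromosome 16 at 95702075-95721051 on the plus strand, with 1 TSS. Its promoter peak height was 0.380 FPM in old-1 and 0.881 in young-2, with none in the other libraries. Both summits were downstream of the TSS, at 518 and 667 bp. *Elk3*, *Elk4* and *Elf1* had the same pattern over the libraries, present in old-1 and young-2, which 10.4% of all genes had.

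*Elk3*, a ternary complex factor that also represses, lay on chromosome 10 at 93247414-93311135 on the minus strand. Its height was 0.335 FPM in old-1, with the summit 172 bp upstream of the nearest TSS, and 1.06 in young-2, with the summit 789 bp downstream. *Elk4*, its activating relative, lay on chromosome 1 at 132007607-132032612 on the plus strand. Its height was 0.350 FPM in old-1, 195 bp upstream of the TSS, and 0.705 in young-2, 96 bp downstream of its second TSS. Both of these *Elk4* peaks covered the CCGGAAGT site printed above, at 132007552-132007559, but neither summit was on it.

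*Elf1*, which has roles in blood and endothelial development, lay on chromosome 14 at 79481194-79582494 on the plus strand. It had a single promoter peak of 0.350 FPM in old-1, 927 bp upstream of an internal TSS, and 4 in young-2. The tallest of the 4 reached 1.19 FPM 210 bp upstream of the first TSS. It lay within 1500 bp of a start site of *Wbp4*, so that signal cannot be assigned to either gene. The next tallest reached 1.145 FPM (26 fragments, fold enrichment 11.2) 648 bp upstream of the internal TSS. No start site of another gene lay within 1500 bp of it, and it overlapped the old-1 peak.

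*Elf2*, the relative of *Elf1*, counted as present in all 4 libraries, but not at a common position. It lay on chromosome 3 at 51252720-51340663 on the minus strand, with 7 distinct TSSs: a distal group near 51340663, a single one at 51325987 and an internal group near 51277368. Its tallest promoter peak was 0.396 FPM in old-1, 0.619 in old-2, 0.397 in young-1 and 1.28 in young-2. In old-1 the peak was 1363 bp downstream of the internal group. In old-2 and young-1 the tallest peaks were 1353 and 1305 bp upstream of the distal TSS, in the stretch printed above. In young-2 the tallest was 35 bp downstream of an internal TSS, and that library had 5 *Elf2* promoter peaks in all. The internal group also lies within 1500 bp of a start site of 4930577N17Rik. The mean log2 height was −1.01 ± 0.46 (SD, n = 2) in the old group and −0.49 ± 1.19 (SD, n = 2) in the young group, a difference of 0.53 (two-sided exact permutation test, p = 0.6667), and the groups overlapped. The 4 heights come from different promoters of the gene, and the median of the same difference over the 487 genes was 0.57. The difference turned to −0.32 without young-2 and to −0.043 against the median promoter peak of each library.

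*Etv6*, a repressor needed for blood stem cells and yolk sac vessels, lay on chromosome 6 at 134035700-134270158 on the plus strand, with 1 TSS. Its tallest promoter peak was 0.335 FPM in old-1, 0.397 in young-1 and 0.573 in young-2, with none in old-2. This combination of libraries was held by 1.84% of all genes. With TSSs of the comprehensive GENCODE annotation in place of the basic one, *Etv6* had a promoter peak in old-2 too. 1 upstream region was shared by the 3 libraries, with summits 535, 552 and 693 bp upstream of the TSS, and its core is the *Etv6* stretch printed above. In that region young-2 had 0.529 FPM, and its taller peak of 0.573 FPM lay 508 bp downstream of the TSS.

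*Gabpa*, the DNA-binding subunit of the GABP complex, lay on chromosome 16 at 84834925-84863779 on the plus strand. Its tallest promoter peak was 0.441 FPM in old-1, 0.437 in old-2 and 0.925 in young-2, with none in young-1. A region just downstream of the start sites was shared by these 3 libraries, with summits 358, 177 and 368 bp from the TSS. In young-2 its height was 0.705 FPM, and the taller peak of 0.925 FPM lay 118 bp upstream of the nearest TSS. That region lies within 1500 bp of a start site of *Atp5j*, which encodes a subunit of the mitochondrial ATP synthase, so the signal cannot be assigned to either gene.

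**Figure D2:**
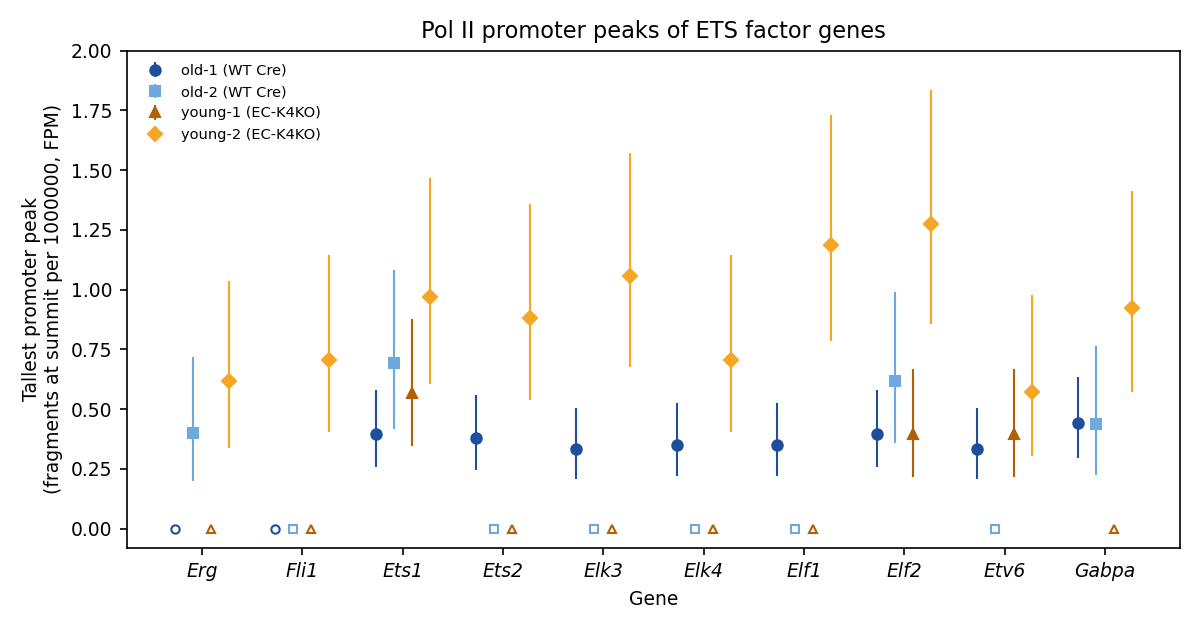
Tallest promoter peak (vertical axis, FPM, fragments at the summit per 1000000) of each gene (horizontal axis) in each library, with exact 95% Poisson limits as bars. Open symbols at 0 mark libraries with no promoter peak for the gene. *Ets1* and *Elf2* have filled symbols in all 4 libraries, and each gene is highest in young-2.

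Each of the 10 genes was highest in young-2, where the median promoter peak over all genes was also highest. The order of *Ets1* over the libraries was young-2, old-2, young-1 and old-1, and the Poisson limits of neighbours in that order overlapped. For *Elf2* the order was the same, with young-1 and old-1 at 0.397 and 0.396. Among the 487 genes with a promoter peak in all libraries, 19.5% were higher in both young than in both old libraries and 2.46% the reverse, and neither *Ets1* nor *Elf2* was among them.

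By Euclidean distance of log2 height over the 4 libraries, the genes most like *Ets1* were *Fam169b* at 0.18, *Cdk6* at 0.27 and *Pcx* at 0.36. Those most like *Elf2* were *Syne2* and *Hist1h1c*, both at 0.24, and *Caprin1* at 0.26. These distances are descriptions over 4 libraries that share their depth and background with every gene.

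Over the 10 genes and 4 libraries there were 41 promoter peaks. The summit was upstream of the nearest TSS in 21 and downstream in 20, at a median distance of 552 bp, and 17 were within 500 bp. 11 of the 41 also lay at a start site of another gene. The summits were thus spread over the window.

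**Figure D3:**
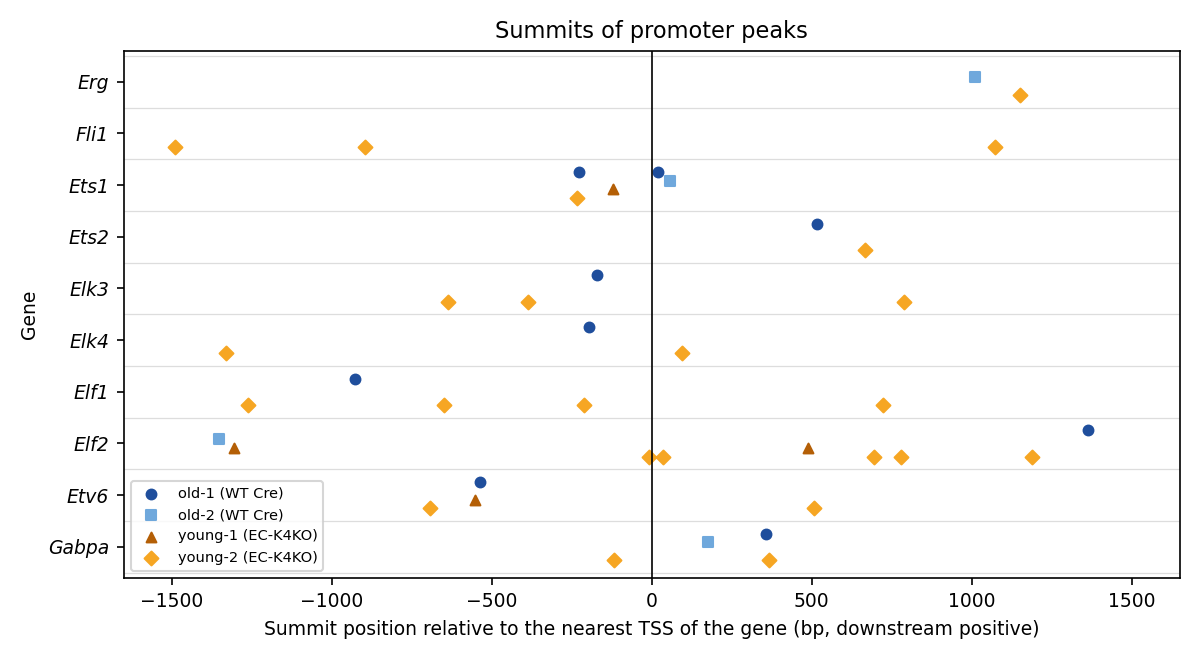
Position of each promoter peak summit relative to the nearest TSS of the gene (horizontal axis, bp, downstream positive), for the 10 genes (vertical axis), with 1 symbol per library. Of 41 summits, 17 lie within 500 bp of the TSS, and the *Etv6* and *Gabpa* summits of 3 libraries each fall near a common position.

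Peaks inside the genes followed the length of the peak lists. The 10 gene bodies, 1029.95 kb in all, held 56 and 17 body peaks in old-1 and old-2, and 13 and 136 in young-1 and young-2. That is 5.44, 1.65, 1.26 and 13.2 peaks per 100 kb, against 3.19, 1.47, 1.18 and 9.34 over all protein-coding genes. The density was thus 1.70 and 1.12 times that of all genes in the old group and 1.07 and 1.41 times in the young group, above 1 in each library and highest in the 2 with the longest lists. The group means were 3.54 ± 2.68 (SD, n = 2) and 7.23 ± 8.44 (SD, n = 2) per 100 kb, and their difference was within the spread between libraries (exact permutation test, two-sided, p = 1). The difference of 3.69 turned to −2.28 without young-2.

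At least 1 body peak was present in 9, 7, 6 and 10 of the genes, against 46.5%, 32.8%, 25.9% and 68.6% of all genes. *Erg* held the most, with 21 and 6 in the old group and 5 and 32 in the young group, followed by *Etv6* with 11, 3, 2 and 29. Both are among the longest of the 10, at 227425 and 234459 bp. Per 100 kb, *Erg* had 9.23, 2.64, 2.2 and 14.1 body peaks, above the value of all genes in each library, and *Etv6* had 4.69, 1.28, 0.853 and 12.4, below it in old-2 and young-1. *Fli1*, which lies near *Ets1* on chromosome 9, had 3, 0, 2 and 20, and *Ets1* had 6, 1, 0 and 22. These 2 genes had 0 in different libraries. The shorter genes had few: *Gabpa* had 2, 0, 0 and 3, *Ets2* had 0, 1, 0 and 3, and *Elk4* had 3, 1, 2 and 5. Per 100 kb, the 25006 bp of *Elk4* held more body peaks than *Erg* in each library, at 12, 4.0, 8.0 and 20.0.

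Of the body peaks of young-2, 121 had their summit in an intron and 15 in an exon, and in the other libraries 1 or 2 were exonic. The 5′ 50% of the gene bodies held 27 of 56, 8 of 17, 4 of 13 and 72 of 136 body peaks, or 48.2%, 47.1%, 30.8% and 52.9%, against 46.2%, 45%, 46.6% and 45.3% over all genes. Their median heights of 0.319, 0.401, 0.426 and 0.529 FPM lay near those of body peaks of all genes, at 0.319, 0.473, 0.397 and 0.573.

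**Figure D4:**
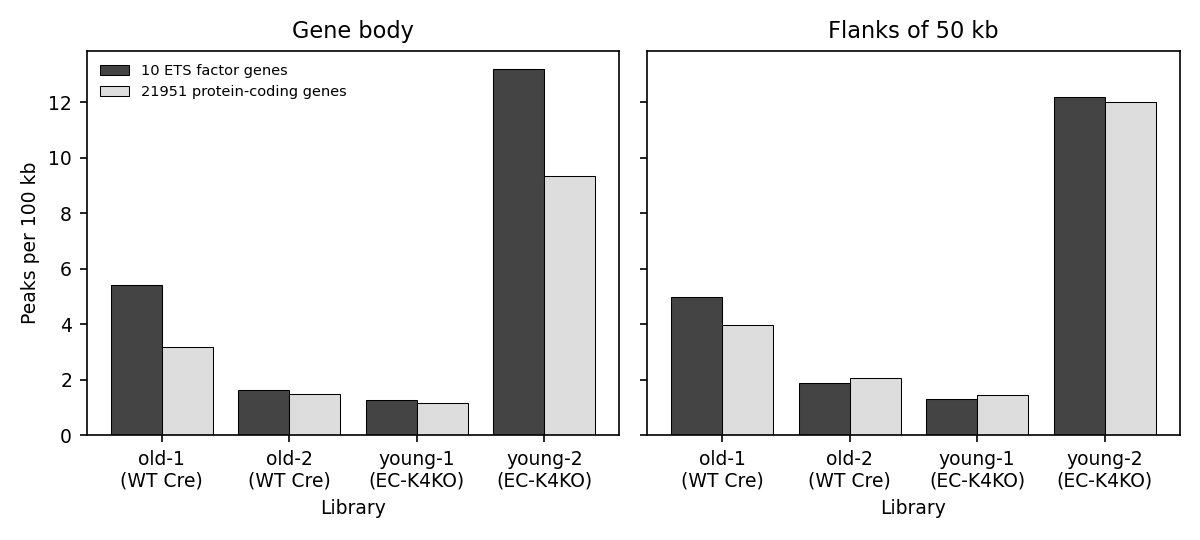
Peaks per 100 kb (vertical axis) in gene bodies and in flanks of 50 kb, by library (horizontal axis), for the 10 ETS factor genes and all protein-coding genes. Body density of the 10 genes is above that of all genes in each library, at 13.2 against 9.34 in young-2, and flank density is above that of all genes in old-1 and young-2 and below it in old-2 and young-1.

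The flanks were not above the flanks of all protein-coding genes in each library. They held 50, 19, 13 and 122 peaks, or 5, 1.9, 1.3 and 12.2 per 100 kb, against 3.98, 2.08, 1.45 and 12 for all genes, so they were above it in old-1 and young-2 and below it in old-2 and young-1. The genes with a flank peak were 10, 8, 7 and 10, against 92.7%, 82.1%, 71.6% and 99.1% of all genes, so a flank peak was common throughout. Of these peaks, 2, 3, 0 and 12 lay at a start site of another gene. The group means were 3.45 ± 2.19 and 6.75 ± 7.71 (SD, n = 2 each) per 100 kb, a difference of 3.3 (two-sided exact permutation test, p = 1), which turned to −2.15 without young-2.

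When overlapping peaks of all libraries were merged, the 10 loci held 410 regions. 365 of them (89.0%) were found in 1 library, 39 (9.51%) in 2, 3 (0.732%) in 3 and 3 (0.732%) in all 4. Over the genome the shares of 334827 merged regions were 87.3%, 10.03%, 1.97% and 0.690%. *Erg* had the most regions, 83, of which 6 were in at least 2 libraries, and *Elf2* had 8 of 41 in at least 2.

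The 3 regions found in all 4 libraries were an *Erg* intronic region, the *Ets1* promoter and a region beyond the 3′ end of *Ets1*. The count moved with the definition. It was 0 where summits had to lie within 200 bp, and 1, at *Ets1*, at the stricter q or with lists of equal length. The *Ets1* promoter region spanned chr9:32695518-32696590. The *Ets1* flank region spanned chr9:32764289-32765066, about 68 kb downstream of the TSSs and outside the gene, with heights of 0.274 and 0.364 FPM in the old group and 0.596 and 0.749 in the young group. In this region both young libraries were above both old libraries, and it was picked after seeing the values, so it carries no test. Among the 487 genes with a promoter peak in all libraries, 19.5% also had both young heights above both old. The share over other regions found in all 4 libraries is not given here. The *Erg* region spanned chr16:95508945-95510507 within an intron, about 15 kb downstream of an internal TSS, with heights of 0.304, 0.656, 0.454 and 0.749 FPM. It is a chain of overlapping peaks: old-1 had 2 peaks in it, with summits 15606 and 14653 bp from that TSS, the old-2 summit lay at 15487 bp and the young summits at 14834 and 14856 bp. The libraries thus fell into a pair of neighbouring positions, with old-1 at both.

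The regions found in 3 libraries were the *Etv6* upstream region, the *Gabpa* promoter region and a region in the flank of *Elf2* at chr3:51249995-51250366. The *Elf2* flank region had heights of 0.319 and 0.437 FPM in the old group and 0.617 in young-2.

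**Figure D5:**
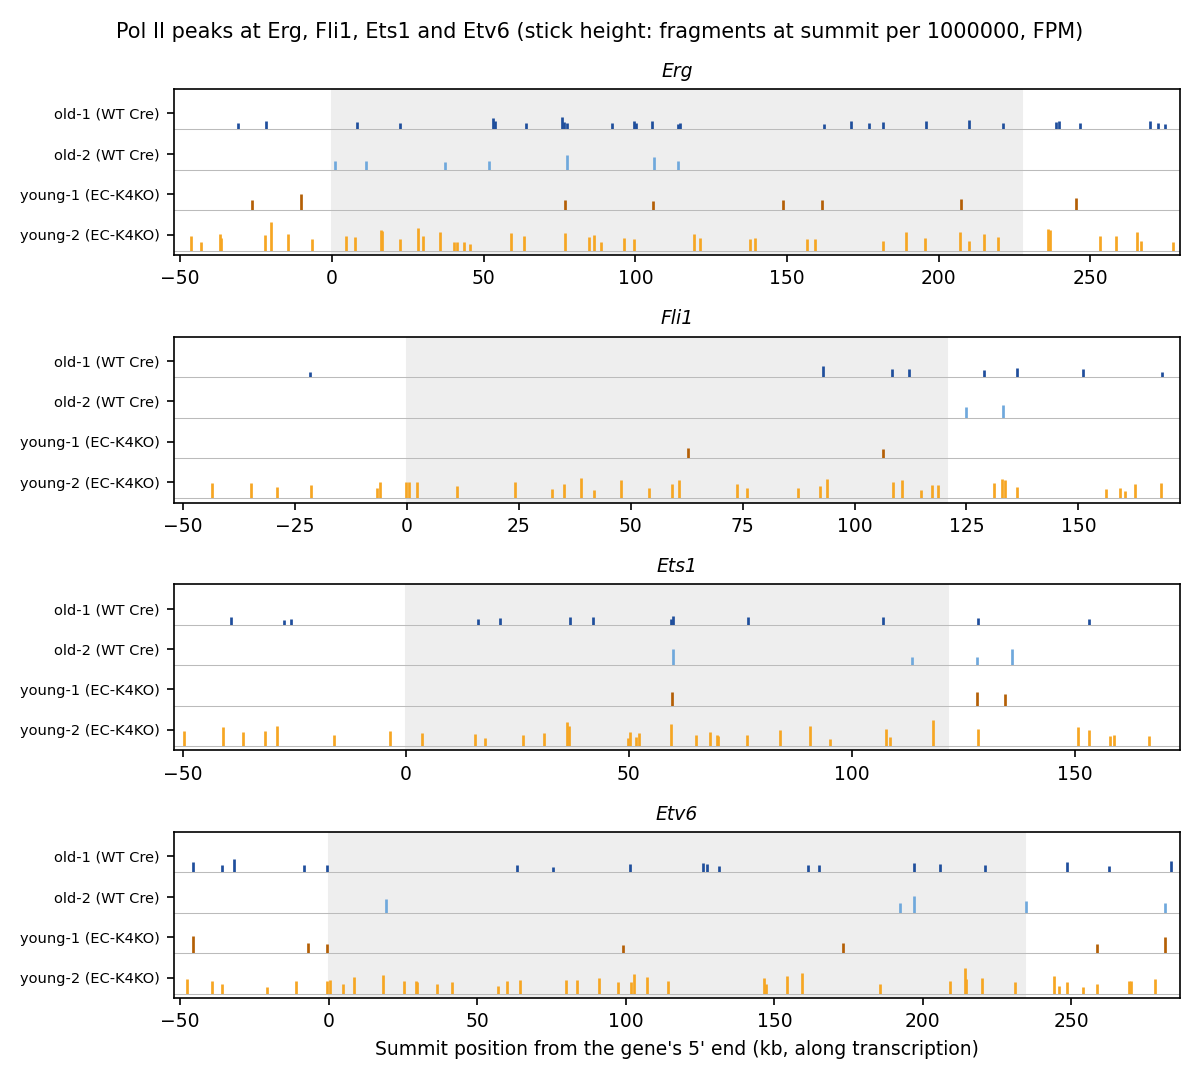
Peak summits along *Erg*, *Fli1*, *Ets1* and *Etv6* (horizontal axis, kb from the 5′ end in the direction of transcription, gene body shaded), in 1 row per library. Stick height on 1 scale in all rows is the FPM, fragments at the summit per 1000000, and young-2 has the densest rows, with 32 body peaks in *Erg* and 29 in *Etv6*.

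The promoter peak was also compared with the body and flank peaks of its locus. It was the tallest for 4 of the 10 genes in old-1 (*Ets1*, *Ets2*, *Elf1* and *Gabpa*), 2 in old-2 (*Ets1* and *Elf2*), 0 in young-1 and 4 in young-2 (*Elk3*, *Elf1*, *Elf2* and *Gabpa*). Over all protein-coding genes this held for 4.86%, 8.35%, 4.16% and 14%. Among the genes with a promoter peak it held for 4 of 8, 2 of 4, 0 of 3 and 4 of 10 ETS factor genes, against 19%, 34.1%, 39.1% and 20.8% of all such genes. A taller peak elsewhere in the locus was thus usual for genes in general, and the part of gene length was not tested. In the other cases a body or flank peak was taller, as at *Erg*, where the tallest peak was 34 fragments in an intron in old-1 and 28 fragments 20041 bp upstream of the TSS in young-2. *Ets2* had no peak of any class in young-1.

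The ETS site itself was searched in 200 bp around the summits of peaks at the 10 loci. CCGGAAGT on either strand was present in 0 of 115 and 0 of 40 windows in the old group, and 0 of 30 and 1 of 281 in the young group, against 0.292%, 0.419%, 0.360% and 0.402% of the windows of all peaks. CCGGAA was present in 5.22%, 7.5%, 3.33% and 3.91%, against 5.34%, 7.84%, 6.16% and 4.91%. GGAA, which lies inside both, was present in 84.3%, 90%, 86.7% and 90.04%, against 82.3%, 79.8%, 88.6% and 88.4%. The windows of the ETS factor loci thus held the longer site about as rarely as peaks elsewhere, with counts too small to separate them.

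The 16 other ETS genes had promoter peaks in 4, 2, 1 and 10 cases, a share near or below that of all genes in each library. 4 of the 16 had none in any library, against 25.4% of all genes, and none had one in all, against 2.22%, so neither count stood apart from the share of all genes. *Elf4*, a relative of *Elf1*, had one in both young libraries, of 0.312 and 0.793 FPM, and in neither old library. It was the 1 of the 16 with that pattern, against 3.12% of all genes. Among 12 genes for ETS partners the counts were 6, 4, 4 and 11, against 25.6%, 24.5%, 10.6% and 67.5% of all genes. *Ep300*, a histone acetyltransferase that ETS factors recruit, had heights of 0.213, 0.437, 0.312 and 0.881 FPM, and *Runx1*, a partner of ETS1, had 0.624, 0.437, 0.539 and 0.969. These 2 genes had a promoter peak in all libraries, and *Srf* had none in any.

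Among 26 endothelial genes known as ETS targets, 8, 7, 4 and 17 had a promoter peak, close to the 25.6%, 24.5%, 10.6% and 67.5% of all genes. Of the 26, 6 had one in both old libraries, against 10.1% of all genes, and 4 in both young libraries, against 9.14%. *Fzd4*, a receptor needed for barrier vessels, was present in all libraries, at 0.243 and 0.510 FPM in the old group and 0.483 and 1.59 in the young group. *Aplnr*, *Klf4* and *Robo4* were present in both young libraries and in neither old library, 3 of 26 against 3.12% of all genes. *Aplnr*, the apelin receptor, had 0.426 and 0.705 FPM there, and *Robo4*, an endothelial guidance receptor, had 0.369 and 0.617. No target was present in both old libraries and in neither young library, a pattern of 0.784% of all genes. *Cdh5*, whose promoter drives the Cre of all these mice, had a promoter peak of 0.335 and 0.947 FPM in the old group and 3.44 in young-2, and none in young-1. The fold enrichment of these *Cdh5* peaks over local background was 3.32, 3.71 and 2.74, lowest in young-2.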

How the data were processed

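The authors' reads were trimmed (TrimGalore), mapped to the mm10 genome by Bowtie2 and cleared of PCR duplicates by Picard and SAMtools, and MACS2 called peaks in each library at a q cutoff of 0.01 without a control. The deposited tables (MACS 2.2.7.1 in the file headers) give positions, the pileup (a coverage signal, as fragments over the summit), the fold enrichment (a ratio over local background) and −log10 of the p-value and q-value, a score not normalized between libraries. Chromatin had been digested with MNase.

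Here pileups were divided by the fragments in the file headers, and peaks were assigned with Python 3.11.15, numpy 2.4.6, pandas 2.3.3 and scipy 1.17.1 to GENCODE M21 basic genes (mm10). Shares over 21951 protein-coding genes served as background. Groups were compared by two-sided exact permutation of the 4 libraries. The study's methods call the replicates biological, and p-values measure the spread between these libraries. Assignment and permutation were tested on simulated data. Promoter sequences are RefSeq (GRCm38). The members and gene lists were chosen with earlier results of these data known. All 10 members are named. Genes of the other lists are named where they had a promoter peak in all libraries or in both of 1 group and neither of the other, and the 3 genes most like *Ets1* and *Elf2* in height over the libraries are given for each. *Srf*, *Cdh5* and markers without a peak were added after their values were seen. Alternatives were other TSS windows and TSS sets, stricter q and fold minimums, lists of equal length, other flanks and denominators, and leaving out each library. The narrow peak lists and summit files repeat the tables and were not used. The summed heights of marker lists take the tallest promoter peak of each gene.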

Additional observations from a re-analysis of the deposited data

How the results depend on the processing

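With a TSS window of 500 bp, 1 of the 10 genes (*Ets1*) had a promoter peak in all libraries in place of 2, and 1 (*Elf2*, in the young group) had one in both libraries of 1 group alone in place of 0. At a q of at most 1e-05, 1 gene (*Ets1*) was present in both young libraries and 1 in all, and the counts in old-2 and young-1 fell from 4 to 2 and from 3 to 1. Leaving out each library in turn, the genes present in both old libraries ranged from 3 to 8, in both young libraries from 3 to 10, in all from 2 to 3 and in 1 group alone from 0 to 1. The 8 came without old-2 and the 10 without young-1, since 1 library then stood for its group. With TSSs of the comprehensive annotation, chosen after seeing the data, 4, 3 and 3 genes were present in both old, both young and all libraries. The gene gained was *Etv6*, through a peak in old-2.

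The body difference of 3.69 peaks per 100 kb fell to −0.58 with lists of equal length and ranged from −2.28 to 9.66 leaving out each library, and the flank difference fell to −0.45 and ranged from −2.15 to 8.75. The log2 height differences of 0.50 for *Ets1* and 0.53 for *Elf2* ranged, leaving out each library, from 0.10 to 0.91 and from −0.32 to 1.37. They were 0.31 and 0.33 with the fragments over the tallest peak left out of the denominator, −0.065 and −0.043 against the median promoter peak of each library, and 0.035 and 0.15 by fold enrichment. The negative values on leaving out a library all came without young-2. Regions in all 4 libraries numbered 0 where summits had to lie within 200 bp, 1 at the stricter q and 1 with lists of equal length, and from 1 to 5 leaving out each library.

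With the replicate number as a block, the differences stayed at 3.69, 3.3, 0.50 and 0.53 (exact permutation within pairs, smallest p 0.5). The number is not known to pair the libraries. No alternative could bring a p below 0.33 with so few libraries, so the lack of a smaller p is not a result. Depth and the small counts at each summit limit the rest: a gene without a peak was not detectable in that list, which does not show that Pol II was absent.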
